A study of Mus musculus with 4 samples.

Results

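The 8 genes described here encode surface or secreted ligands through which tumour and myeloid cells signal to T cells and natural killer (NK) cells. They are Cd274 (PD-L1), Pdcd1lg2 (PD-L2), Cd80, Cd86, Cd276 (B7-H3), Pvr (CD155), Nectin2 (CD112) and Lgals9 (galectin-9). They were chosen by gene symbol, with earlier results of these data known, and are 8 of the 55450 genes in the matrix. Their messenger RNA was counted in single cells of 4T1 tumours by droplet sequencing (10x Genomics), in which each transcript molecule carries a unique molecular identifier (UMI). 4T1 is a mammary carcinoma line of the BALB/c mouse, and 1000000 cells in 25 µl were implanted in the right flank of female BALB/c mice aged 6 to 8 weeks.

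The series held 4 samples, each given an intravenous injection on day 7, irradiation for 5 min on each of days 8, 9 and 10 with near-infrared (NIR) light (980 nm, at an intensity of 1.0 W cm-2), and tumour collection on day 13 with sorting for the leucocyte protein CD45. In 2 samples the injection was PBS (PBS+NIR) and in 1 it was TIOs (TIOs+NIR). TIOs are macrophages of the RAW 264.7 line killed by freezing and loaded with light-converting nanoparticles. The particles carry a photosensitizer and RSL3, an inhibitor of the enzyme GPX4. The title of the remaining sample names PBS while its protocol names TIOs, so it was put in no group. The light was therefore common to all samples, and the sources used here do not say how many mice a sample pooled. The barcodes carried 4 suffixes, called libraries 1 to 4 here, and no source used here tied a suffix to a sample. PBS+NIR and TIOs+NIR were for that reason not compared, no test was run, and the libraries are given one by one as samples of unknown treatment.

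PD-L1 and PD-L2 bind PD-1 on activated T cells and restrain them, and interferon-gamma is the best known inducer of PD-L1. CD80 and CD86 on antigen-presenting cells deliver the second activating signal through CD28 and are taken away by CTLA-4. Pvr and Nectin2 are adhesion molecules of the nectin family that activate NK and T cells through CD226 and inhibit them through TIGIT, CD96 and PVRIG. B7-H3 is a relative of the B7 ligands common on tumour stroma and vessels, and galectin-9 is a sugar-binding protein for which TIM-3 (Havcr2) is one of the described receptors.

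In GENCODE vM21 on the mouse build GRCm38, Cd274 lay on chromosome 19 at positions 29367455 to 29388095 of the forward strand, and Pdcd1lg2 began 22823 bases beyond its end. Cd80 and Cd86 also shared a chromosome, 16, and lay 1789479 bases apart. Pvr and Nectin2 were both on chromosome 7, Cd276 was on chromosome 9 and Lgals9 on chromosome 11. An antisense gene, A930007I19Rik, overlapped Pdcd1lg2 on the opposite strand with 3928 UMIs. As the use of strand in the counting was not given in the sources used here, reads of one gene may have been counted for the other, and values of Pdcd1lg2 carry this limit. Promoters, taken as 250 bases before to 50 bases after the RefSeq start site on GRCm38.p6, were at hand for 6 of the 8 genes. The core of the interferon response element (GAAA, any 2 bases, GAAA, on either strand) was found in 1 of those 6, Lgals9, and in 1131 of all 32851 promoters (3.44%). The search covered only these bases and this core, so elements elsewhere or of another form would be missed. The promoters of Cd274 and Lgals9 are printed 5′ to 3′ on the strand of the gene. They were picked because library 4 was lowest in Cd274 and, in most types, highest in Lgals9. Whether the promoters bear on that order was not tested. Capitals mark the 2 matches, both on the opposite strand, the first beginning 55 bases before the start site and the second 15 bases after it.
Cd274 promoter, chr19:29367188-29367487, forward strand: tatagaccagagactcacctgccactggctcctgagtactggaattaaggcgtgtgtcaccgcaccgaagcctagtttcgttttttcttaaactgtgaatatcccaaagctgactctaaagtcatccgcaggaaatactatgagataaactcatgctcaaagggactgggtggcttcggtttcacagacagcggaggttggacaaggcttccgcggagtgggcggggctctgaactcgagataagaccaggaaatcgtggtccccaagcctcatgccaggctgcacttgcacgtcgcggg
Lgals9 promoter, chr11:78984875-78985174, reverse strand: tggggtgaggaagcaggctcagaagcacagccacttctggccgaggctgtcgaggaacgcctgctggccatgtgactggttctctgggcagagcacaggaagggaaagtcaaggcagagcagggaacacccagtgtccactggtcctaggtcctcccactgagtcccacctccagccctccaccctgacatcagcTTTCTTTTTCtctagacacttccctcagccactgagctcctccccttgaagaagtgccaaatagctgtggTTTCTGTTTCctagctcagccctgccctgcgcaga

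The files held 33064 barcodes, and 32133 cells with at least 300 genes and at most 15% mitochondrial UMIs were kept. The libraries held 69255999 to 108646352 UMIs each and the median kept cell 2641.5 to 11698 UMIs. Cells were assigned to a type by a gate on marker genes that used none of the 8 ligands. The gate named 25716 cells and left 6417 (19.97%) without a name, and type names below stand for that gate. Of the 115 markers, 113 were at least 3-fold above the other gated cells in their own type, the exceptions being Ly6d (2.09-fold, plasmacytoid dendritic cells) and Klra8 (no UMI, NK cells). The gate used these same markers, so their excess follows from its rule and is no check of the type names. The libraries differed in make-up, since tumour or epithelial cells numbered 3653 in library 1, 257 in library 2, 0 in library 3 and 1 in library 4, while library 4 held 2901 of the 3551 monocytes. Despite the CD45 sort, a UMI of Ptprc, which encodes CD45, was found in 37.9% to 77.4% of cells per library. Among kept cells, 95 barcode sequences occurred in 2 libraries. The level of a gene is given as CPM, its UMIs in the summed cells of a type in a library per 1000000 UMIs of those cells, for types with at least 50 cells in the library. Brackets hold exact 95% intervals, Poisson for CPM and Clopper-Pearson for shares, and express counting error alone. Levels were compared between types and libraries and never between genes.

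Cd274 was highest in neutrophils, where it reached 556 CPM [513 to 602] in library 1, 570 [550 to 591] in library 2, 378 [363 to 394] in library 3 and 127 [115 to 140] in library 4. The 4 intervals separate library 3 and library 4 from each other and from the first pair, which overlap. These cells held 34.3% of all 18374 Cd274 UMIs, although their median depth of 1670.5 to 1967.5 UMIs was the lowest of the main types. Mature dendritic cells, which carry antigen to lymph nodes, had at least 50 cells only in library 3, with 196 CPM [178 to 215] in 207 cells, below the neutrophils of the same library. In libraries 1 and 2 only 18 and 26 mature dendritic cells were found, with 262 and 283 CPM.

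Below them came monocytes (40.1 to 151 CPM), T cells (46.2 to 86.1), type 1 dendritic cells (13.4 to 105), type 2 dendritic cells (9.29 to 114) and macrophages (25.4 to 113), whose ranges overlapped, so that their order is not firm. The 2 libraries with tumour or epithelial cells gave 20.5 and 10.3 CPM there. Fibroblasts had 10.2, 13.9, 6.07 and 3.72 CPM and pericytes or smooth muscle cells 6.76 and 5.31, the lowest medians of the gated types. In every library the neutrophil level of Cd274 was at least 2-fold that of macrophages (4.74 to 11.04-fold), a rule that called 2 of the 7 ligands tested and 7.45% of all genes. It was also at least 2-fold that of monocytes (2.95 to 6.01-fold), where 1 of 7 ligands and 5.86% of genes passed. Against T cells the fold was 2.76 to 7.01, with 2 of 6 ligands and 8.47% of genes passing, and against fibroblasts 34.3 to 62.4, with 3 of 8 ligands and 12.8% of genes passing.

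Because a deep cell shows a transcript more readily, cells were also thinned to 1000 UMIs each, leaving out 1890 shallower cells. After thinning, a Cd274 UMI was found in 34.4%, 31.2%, 26.9% and 10.1% of neutrophils of libraries 1 to 4. The unthinned shares were 44.3%, 41.5%, 39.3% and 15.8%. Fibroblasts, the type with the lowest level among those in all libraries, gave thinned shares of 0.680%, 2.42%, 0.437% and 0.291% at median depths of 14366 to 37922 UMIs. T cells gave 6.90% to 15.5%. Fibroblasts are far deeper than T cells or neutrophils, so that thinning also reduces any free RNA in them, and their share is no upper limit for free RNA in shallower cells. The 151 fibroblasts of library 2 with neither a Lrrc15 nor a Dpt UMI, with a median of 2065 UMIs, held 52.8 CPM of Cd274, within the range of T cells. The part of free RNA in the T cell values was not tested.

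**Figure D1:**
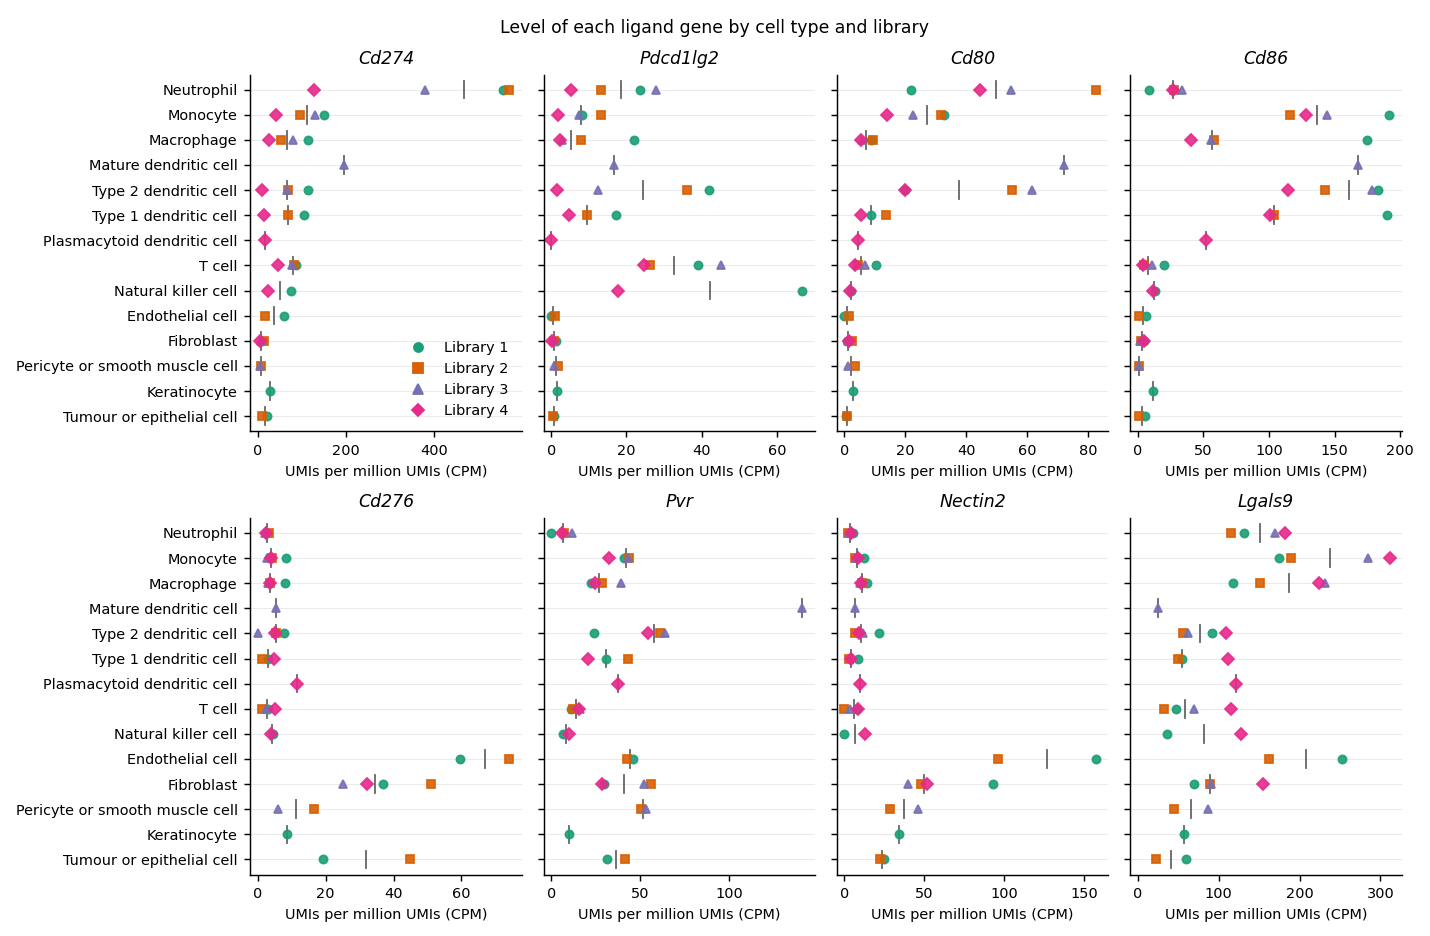
Level in UMIs per 1000000 UMIs (CPM, linear axes starting at 0, a separate scale for each gene) of the 8 ligand genes in 14 gated cell types; each point is 1 library with at least 50 cells of the type and the grey bar is the median over those libraries. Cd274 stands highest in neutrophils (127 to 570 CPM), Cd86 in dendritic cells and monocytes, Cd276 and Nectin2 in endothelial cells and fibroblasts, and Lgals9 is spread over most types.

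In each of the 8 types that library 4 shared with another library, library 4 had the lowest level of Cd274. The order of the other libraries varied, as library 1 was above library 2 in endothelial cells (59.7 and 15.4 CPM) but below it in fibroblasts (10.2 and 13.9). Among 5447 genes that could be judged in those 8 types, 16 (0.294%) were lowest in library 4 in all of them. The neutrophil level of library 2 was 4.47-fold [4.04 to 4.97] that of library 4, and 11.02% of genes in neutrophils spanned at least as large a fold. Between the highest and the lowest of the other 3 libraries the fold was 1.51. In type 2 dendritic cells the levels were 114, 67.4, 66.5 and 9.29 CPM, with 195, 99, 53 and 13 UMIs behind them. T cells differed least, with 86.1, 81.3, 77.2 and 46.2 CPM. Neutrophils of the 4 libraries had like depth (median 1670.5, 1780, 1967.5 and 1743 UMIs), and library 4 was lowest after thinning too. Fibroblast levels, which may include free RNA, were also lowest in library 4. Free RNA was not measured, and its part in the differences of any type was not tested. A treatment, a mouse and a library cannot be told apart here.

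Neutrophils were divided by a UMI of Retnlg, a gene of mature circulating neutrophils. With a Retnlg UMI the Cd274 level was 495, 474, 370 and 122 CPM in libraries 1 to 4, and without one it was 705, 609, 386 and 132 CPM. Cells without Retnlg were thus higher in 4 of 4 libraries, with separate intervals in libraries 1 and 2 and overlapping ones in libraries 3 and 4. The low level of library 4 was present in both fractions. Fractions of a type are given from 20 cells upward. Retnlg, Arg1 and Dpt were also markers of the gate, and a split by detection follows depth as well. Macrophages with Arg1 but no Cd163 UMI, which include immunosuppressive ones, had 117, 69.6, 85.0 and 28.2 CPM of Cd274, and those with a Cd163 UMI had 117, 39.1, 77.7 and 22.3, so that the fractions of a library differed by less than libraries 1 and 4 did. Of the 8969 kept cells with a Cd274 UMI, 55.4% held a single one and the highest count in a cell was 20.

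Pdcd1lg2, the second PD-1 ligand, gave 1695 UMIs in all and is therefore known less precisely. It did not follow Cd274 into one leading type. NK cells had 66.8 CPM [45.4 to 94.8] in library 1 and 17.7 [10.5 to 27.9] in library 4. T cells had 38.9, 26.4, 45.1 and 24.8 CPM, type 2 dendritic cells 42.0, 36.1, 12.5 and 1.43, and neutrophils 23.7, 13.2, 27.8 and 5.19. The ranges of these 4 types overlapped, and the order of NK cells and T cells turned with the processing. Mature dendritic cells had 16.8 CPM [11.9 to 23.1] in library 3. The 18 and 26 mature dendritic cells of libraries 1 and 2, below the minimum of 50 cells, had 134 [83.1 to 205] and 44.2 [22.8 to 77.1]. Fibroblasts held 0.223 to 1.22 CPM, so T cells exceeded them 32.0 to 111-fold. Cd274 and Pdcd1lg2 were the 2 of 8 ligands at least 2-fold above fibroblasts in T cells of every library, against 10.9% of genes. After thinning, 1.72% to 5.15% of T cells and 0% to 0.291% of fibroblasts held a UMI. Regulatory T cells, taken as T cells with a Foxp3 UMI, had 92.3, 33.0 and 51.7 CPM in 32, 23 and 83 cells of libraries 1 to 3, and T cells with Cd4 but neither Cd8 nor Foxp3 had 28.5, 20.03 and 51.6, so that the intervals overlapped in each library. Macrophages had 22.0, 7.83, 2.87 and 2.40 CPM, library 1 standing apart with separate intervals from the other 3. Like Cd274, Pdcd1lg2 was lowest in library 4 in 8 of 8 types, but it did not reach the 10 CPM needed for the count over genes in all of them. Its interval in library 4 overlapped that of another library in T cells, monocytes, macrophages, type 1 dendritic cells and fibroblasts. In those types the lowest place of library 4 is not firm.

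Cd80, which binds CD28 and CTLA-4 and also PD-L1 on the same cell, had 72.0 CPM [61.4 to 84.0] in mature dendritic cells of library 3. Neutrophils had 21.9 [14.04 to 32.6], 82.5 [74.9 to 90.6], 54.8 [49.0 to 61.1] and 44.6 [37.7 to 52.5] CPM in libraries 1 to 4. Type 2 dendritic cells had 19.8, 55.1, 61.5 and 20.02 CPM, and monocytes 32.6, 31.6, 22.5 and 13.9. The ranges of neutrophils and type 2 dendritic cells overlapped, and library 1 was low in both. Type 1 dendritic cells (5.52 to 13.5 CPM), macrophages (5.49 to 9.29) and T cells (3.42 to 10.4) formed a lower level, and no library of fibroblasts passed 2.53 CPM.

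Cd80 differed between myeloid types in comparisons that few genes passed. It was 2.53 to 3.92-fold higher in monocytes than in macrophages in every library, as the 1 of 7 ligands that passed, against 1.65% of genes. It was 2.28 to 10.7-fold higher in type 2 dendritic cells than in macrophages, again the 1 of 7 ligands that passed, against 1.47% of genes. Against type 1 dendritic cells it was 2.30 to 4.09-fold higher in 3 of 3 libraries, and there 2 of 7 ligands (Cd80 and Nectin2) and 1.88% of genes passed. In library 1 the Cd80 intervals of these types overlapped (19.8 CPM [13.7 to 27.7] and 8.64 [3.95 to 16.4]). The Nectin2 intervals overlapped in each of the 3 libraries, with 10 and 2 UMIs in library 2. The Nectin2 call and the Cd80 step in library 1 are therefore not firm. In Cd80, neutrophils exceeded macrophages 2.52 to 9.55-fold. After thinning, a Cd80 UMI was found in 1.45% to 6.79% of neutrophils and in 0.388% to 0.680% of fibroblasts. In libraries 1 to 4 the thinned shares were 0%, 2.56%, 1.69% and 1.25% of monocytes. For macrophages they were 0.741%, 0.741%, 1.29% and 0.705%. The monocyte level of library 1, 32.6 CPM [14.1 to 64.2], rests on 8 UMIs in 50 cells. Its 2-fold step above macrophages (8.69 CPM [6.83 to 10.9]) is therefore not firm.

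Cd86, the other CD28 ligand, was high across antigen-presenting types and low in neutrophils. Type 2 dendritic cells had 183, 143, 178 and 114 CPM, monocytes 191, 116, 144 and 128, and type 1 dendritic cells 190, 104 and 101 in libraries 1, 2 and 4. The mature dendritic cells of library 3 had 168 CPM [151 to 186], within the range of those types. None of these 4 types could be ranked above the others. Macrophages had 175 CPM [166 to 184] in library 1 but 57.7, 55.7 and 40.6 in libraries 2 to 4, so that library 1 stood apart from the others. Neutrophils had 8.22, 27.4, 33.5 and 26.9 CPM. In every library Cd86 was higher in monocytes than in neutrophils by 4.23 to 23.3-fold and in type 2 dendritic cells than in neutrophils by 4.25 to 22.3-fold. In these comparisons 2 of 7 ligands against 21.9% of genes, and 3 of 7 ligands against 30.0% of genes, passed. These shares are near those of all genes and do not set the ligands apart. Relative to type 2 dendritic cells, neutrophils thus overlapped in Cd80 and were lower in Cd86 in 4 of 4 libraries.

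Cd276 had its highest levels outside the immune types. Endothelial cells had 59.7 CPM [40.3 to 85.2] in library 1 and 74.1 [66.4 to 82.5] in library 2. Fibroblasts had 37.0, 51.2, 25.1 and 32.0 CPM in libraries 1 to 4, and tumour or epithelial cells 19.1 [18.1 to 20.1] and 44.9 [41.0 to 49.1] in libraries 1 and 2. Fibroblasts held 54.7% and tumour or epithelial cells 26.3% of all 7313 Cd276 UMIs. Endothelial cells and fibroblasts overlapped in library 1 and had separate intervals in library 2, but the 2-fold rule was passed by none of the 5 ligands tested there, against 12.3% of genes. Monocytes, macrophages, dendritic cells, T cells and neutrophils stayed at or below 11.7 CPM, and no UMI was found in type 2 dendritic cells of library 3, where 3 UMIs would have been 3.76 CPM. Fibroblasts exceeded macrophages 4.69 to 14.8-fold in Cd276 and 4.04 to 6.74-fold in Nectin2, the 2 of 7 ligands that passed, against 16.3% of genes. They also exceeded type 2 dendritic cells in the same pair (2 of 8 ligands, 16.5% of genes). With so few ligands, these shares do not set the ligands apart from all genes. Against neutrophils 3 of 8 ligands passed, near the 45.3% of all genes that did.

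Nectin2 had a similar distribution. Endothelial cells had 157 CPM [124 to 196] and 95.7 [86.9 to 105], fibroblasts 93.0, 47.8, 39.5 and 51.6, pericytes or smooth muscle cells 28.2 and 46.2, keratinocytes of library 1 34.0, and tumour or epithelial cells 24.5 and 22.0. Fibroblasts held 52.3% of the 10068 UMIs. Nectin2 was 3.80-fold higher in fibroblasts than in tumour or epithelial cells in library 1 and 2.17-fold higher in library 2. It was the 1 of 5 ligands tested that passed, near the 14.3% of all genes that did. No ligand of the 5 was at least 2-fold higher in tumour or epithelial cells than in fibroblasts in both libraries (8.56% of genes). Cd274 was 2.02-fold as high in tumour or epithelial cells in library 1 and 0.737-fold in library 2. Macrophages had 9.76 to 13.8 CPM and neutrophils 2.27 to 5.48. Macrophages with a UMI of Cd163, a scavenger receptor, had more Nectin2 (20.2, 13.3, 15.5 and 12.6 CPM) than those with Arg1 but no Cd163 (13.5, 8.50, 6.46 and 7.70) in 4 of 4 libraries, with overlapping intervals in each.

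Fibroblasts were divided by Lrrc15, a marker of activated tumour fibroblasts, and Dpt, a marker of less activated ones. As Dpt was also a marker of the gate and detection follows depth, the fractions may differ in more than activation. With a Lrrc15 UMI, Cd276 had 35.1, 59.9, 38.5 and 36.3 CPM in libraries 1 to 4. With Dpt but no Lrrc15 it had 42.1, 21.3 and 29.9 CPM in libraries 2, 3 and 4. Cd276 was thus higher with Lrrc15 in all 3 libraries that held both, with separate intervals in each. Nectin2 was higher with Lrrc15 in library 2 (55.2 against 38.6 CPM) and library 3 (50.1 against 35.6) but lower in library 4 (33.7 against 55.7), so its direction turned. Tumour or epithelial cells with a UMI of Mki67 or Top2a, which mark division, had 20.1 and 45.7 CPM of Cd276, and those without had 17.4 and 43.5.

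**Figure D2:**
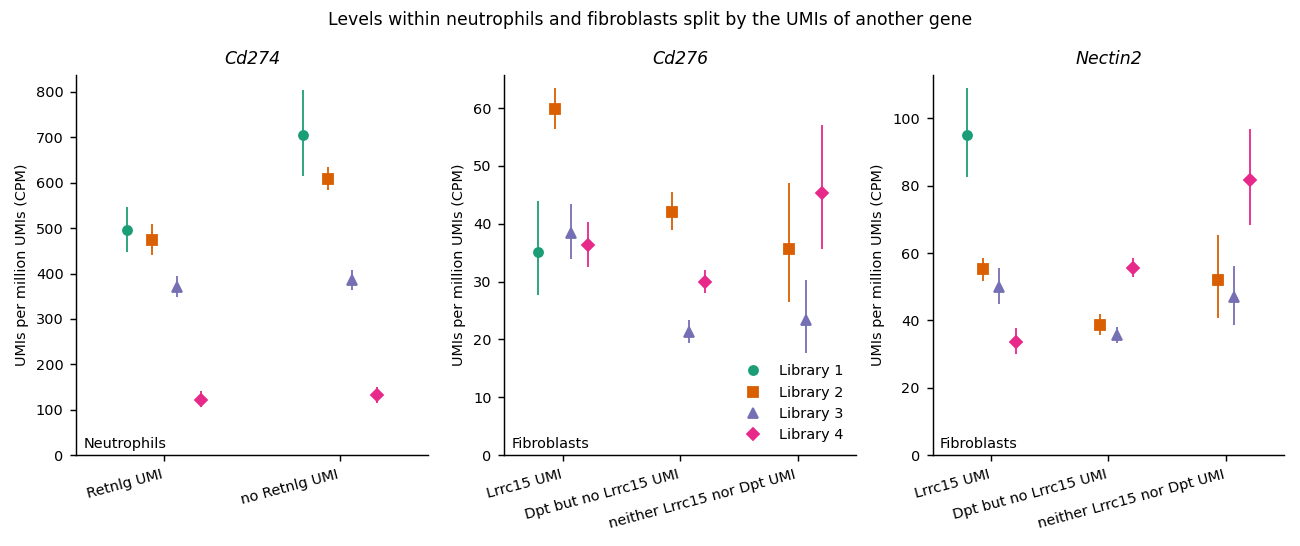
Level in CPM (linear axes from 0) of Cd274 in neutrophils with and without a Retnlg UMI, and of Cd276 and Nectin2 in fibroblasts with a Lrrc15 UMI, with Dpt only, or with neither; points are libraries and bars are 95% Poisson intervals. Cd274 is higher without Retnlg in libraries 1 and 2 (705 and 609 against 495 and 474 CPM), and Nectin2 in library 4 runs opposite to libraries 2 and 3.

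Pvr, the main CD226 and TIGIT ligand of the nectin family, was found in stromal, tumour and myeloid types. Mature dendritic cells of library 3 had 141 CPM [126 to 157], in 319 UMIs. Pericytes or smooth muscle cells had 50.3 and 53.0 CPM, endothelial cells 45.8 and 42.3, fibroblasts 29.6, 55.9, 52.3 and 28.4, and tumour or epithelial cells 31.3 and 41.3. Type 2 dendritic cells had 23.9, 61.3, 64.0 and 54.3 CPM, monocytes 32.5 to 43.6, and macrophages 22.1 to 39.1. Most of these ranges overlapped. Pericytes or smooth muscle cells, held by libraries 2 and 3 alone, lay above endothelial cells, monocytes, macrophages and tumour cells in range. In library 2 their interval [43.0 to 58.4] overlapped those of endothelial cells, monocytes and tumour cells but not that of macrophages. In library 3 it [47.1 to 59.3] overlapped those of monocytes and macrophages, so this order is not firm. The 18 and 26 mature dendritic cells of libraries 1 and 2 had 109 CPM [63.3 to 174] and 77.3 [47.8 to 118], the latter overlapping the type 2 dendritic cells of that library. T cells had 11.2 to 16.3 CPM and neutrophils 0, 7.19, 11.7 and 6.11, the 0 standing for fewer than the 3 UMIs that would be 2.74 CPM. Macrophages exceeded neutrophils at least 2-fold in Pvr and Nectin2, 2 of 7 ligands, near the 32.1% of all genes that did.

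Within library 3, mature dendritic cells were compared with type 2 dendritic cells. Cd274 was 2.95-fold and Pvr 2.20-fold higher (2 of 7 ligands, 19.4% of genes), while Lgals9 was 2.49-fold lower (1 of 7 ligands, 15.6% of genes at least 2-fold higher in type 2 dendritic cells), shares near those of all genes. As a single library held enough of these cells, the differences have no check in another library.

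Lgals9 was found in every type, with a UMI in 46.2% of kept cells. Monocytes had 175, 189, 285 and 312 CPM in libraries 1 to 4, endothelial cells 253 and 163 in libraries 1 and 2, macrophages 117, 151, 231 and 224, and neutrophils 131, 115, 170 and 182. Fibroblasts had 69.0, 89.1, 90.3 and 154 CPM, and plasmacytoid dendritic cells of library 4 had 121. The lowest median over libraries was that of mature dendritic cells, 25.2 CPM [19.1 to 32.6] in library 3, although tumour or epithelial cells had 22.3 CPM [19.6 to 25.3] in library 2 and 59.7 in library 1. After thinning, a UMI was found in 16.2% to 25.4% of monocytes and in 0.985% of mature dendritic cells. Lgals9 was higher in monocytes than in type 2 dendritic cells in 4 of 4 libraries (1.91 to 4.55-fold), but the rule of 2-fold in every library was passed by 0 of 7 ligands, against 2.59% of genes.

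Lgals9 was highest in library 4 in 7 of the 8 types compared, macrophages being the exception (231 CPM in library 3 and 224 in library 4, with overlapping intervals). The interval of library 4 also overlapped that of library 3 in neutrophils and monocytes, and that of library 1 in type 2 dendritic cells. Its first place is therefore not firm in those types. Being highest in library 4 in at least 7 of the 8 types held for 5.09% of genes. T cells had 47.2, 32.9, 69.1 and 115 CPM and type 1 dendritic cells 54.7, 49.9 and 112 in libraries 1, 2 and 4. The folds were moderate in the larger types, 1.59 in neutrophils, 1.78 in monocytes and 2.23 in fibroblasts. Folds at least as large were found in 74.0%, 53.5% and 21.0% of genes of those types. For comparison, the fold of Cd274 between libraries was 3.75 in monocytes (14.5% of genes at least as large), 4.45 in macrophages (9.69%) and 12.2 in type 2 dendritic cells (4.99%).

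**Figure D3:**
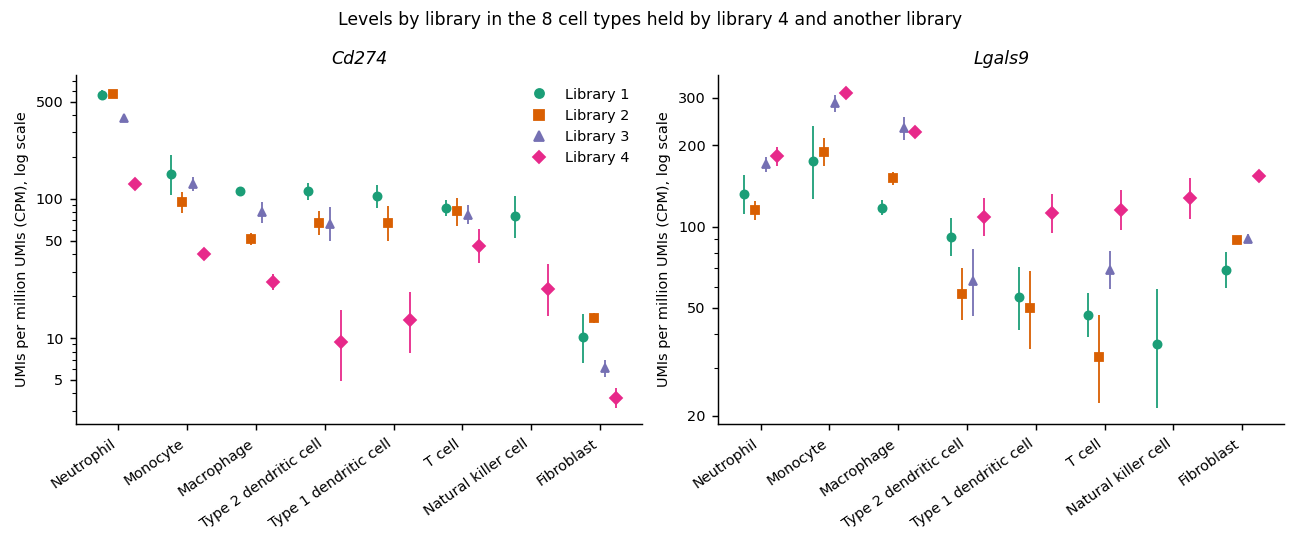
Level in CPM (log axes) of Cd274 and Lgals9 in the 8 cell types that library 4 shares with at least 1 other library; points are libraries and bars 95% Poisson intervals. Library 4 is the lowest point for Cd274 in all 8 types and the highest for Lgals9 in 7 of 8, the exception being macrophages. For Lgals9 its interval overlaps that of another library in neutrophils, monocytes and type 2 dendritic cells.

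Some single cells held more than 1 ligand. In library 3, 94 of 207 mature dendritic cells (45.4%) had UMIs of Cd274 and Cd86, 82 of Cd274 and Pvr, 68 of Cd274 and Cd80, and 65 (31.4%) of Cd80 and Cd86. Thinned to 1000 UMIs, 3.94%, 3.45%, 2.46% and 2.96% of 203 such cells held these pairs. Fewer UMIs lower any such share, and whether the ligands go together in a cell was not tested. In neutrophils Cd274 and Cd80 were found together in 12, 162, 125 and 19 cells of libraries 1 to 4. After thinning, Cd80 was present in 0.602%, 6.48%, 6.96% and 5.85% of neutrophils with a Cd274 UMI and in 1.90%, 6.94%, 4.37% and 4.66% of those without, higher with Cd274 in 2 of 4 libraries. Cd276 and Nectin2 were found together in 29.3% to 45.2% of fibroblasts and, after thinning, in at most 0.388%.

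At equal depth, 47.3% of mature dendritic cells held at least 1 of the 8 ligands and 16.7% at least 2. Monocytes held at least 1 in 36.3% to 52.0% of cells and neutrophils in 42.9%, 44.4%, 44.0% and 30.2%, library 4 being lowest. Fibroblasts did so in 20.3% to 26.9%, T cells in 20.1% to 25.0% and tumour or epithelial cells in 14.9% and 19.8%.

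**Figure D4:**
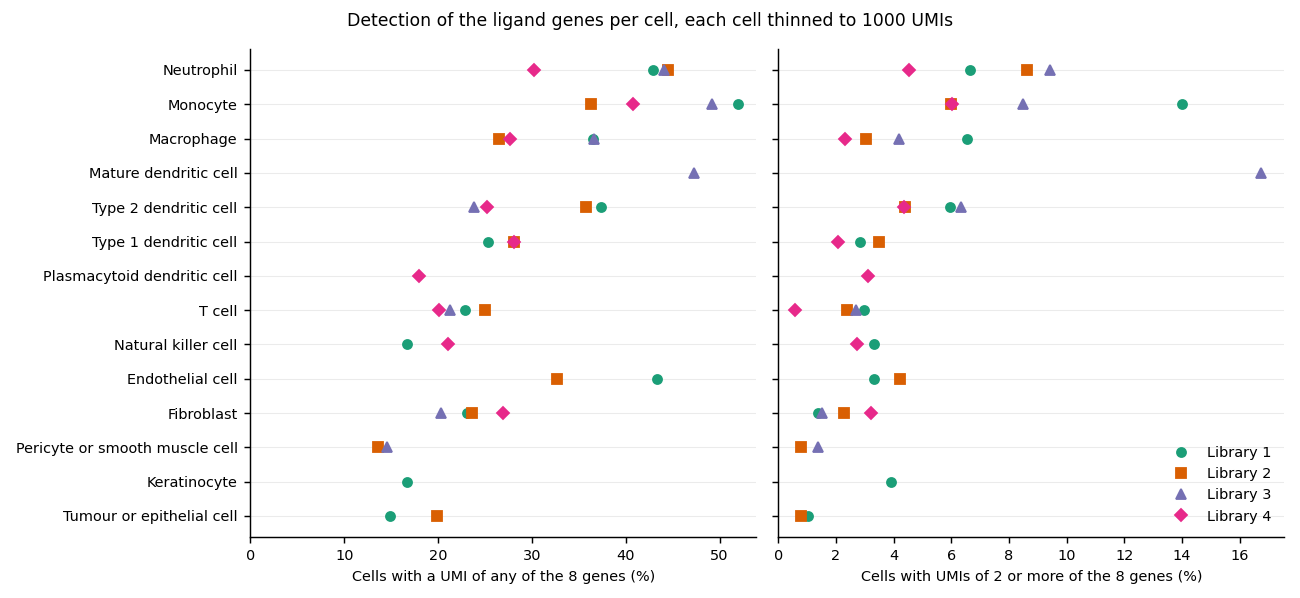
Percent of cells, each thinned to 1000 UMIs, with a UMI of any of the 8 ligand genes (left) and with UMIs of 2 or more of them (right), by cell type; each point is 1 library with at least 50 cells of the type. Mature dendritic cells of library 3 lead in the right panel (16.7%), and tumour or epithelial cells and pericytes are low in both.

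Across the 38 pairs of a type and a library, levels on the scale log2(CPM + 10) gave a Pearson r of 0.86 between Cd276 and Nectin2, 0.72 between Cd274 and Cd80, 0.63 between Cd80 and Cd86 and 0.62 between Cd274 and Pdcd1lg2. Cd274 and Nectin2 gave -0.56. The points share libraries and cell types, so these values are descriptions. Over the same points and 7184 genes, the genes most like Cd274 were Ccrl2 (0.88), Il1b (0.84) and Ebi3 (0.84). For Pdcd1lg2 they were Impa2 (0.79), Ltb (0.77) and Dennd4a (0.77), for Cd80 Il1b, Slc2a6 and Kpna4 (0.83 each), and for Cd86 Irf5 (0.94), Rassf4 (0.90) and Pkib (0.89). For Cd276 they were Lamb1 (0.92), Pxdn (0.91) and Synpo (0.90), for Pvr Clic4 (0.85), Ccdc88a (0.82) and Ctnna1 (0.80), for Nectin2 they included Tnfaip1 (0.88) and Arhgef28 (0.88), and for Lgals9 Lgals8 (0.85), Gda (0.82) and Oasl2 (0.81). Of the 24 pairs, 9 were still among the first 3 when Spearman's rho was used. Neutrophil Il1b, the cytokine interleukin-1 beta, was 10142, 16560, 15247 and 12148 CPM.

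Most receptors of these ligands had their highest median in lymphocytes, 5 of 8 in T cells and 2 in NK cells (Cd226 and Pvrig). Havcr2 was highest in type 1 dendritic cells (48.1 to 91.6 CPM). Pvrig had only 5.89 and 12.9 CPM in NK cells, so its place rests on few UMIs. T cells held Pdcd1, which encodes PD-1, at 421, 43.9, 81.7 and 36.8 CPM in libraries 1 to 4, library 1 being far above the others. Cd28 had 267, 381, 501 and 477 CPM there and Ctla4 308, 539, 358 and 213. Tigit, also counted in T cells, stayed at or below 4.51 CPM, so its place is not firm either. Among 7 relatives of the ligands, Vsir (VISTA) was highest in monocytes (172 to 256 CPM) and, like Lgals9, was highest in library 4 in 7 of 8 types. Icosl was highest in type 2 dendritic cells (15.2 to 42.6 CPM), Nectin3 in fibroblasts (35.7 to 43.5), and Nectin1 and Nectin4 in keratinocytes of library 1 (84.7 and 21.0). Vtcn1 (B7-H4) and Btn2a2 had at most 1.68 and 0.0265 CPM in tumour or epithelial cells, their leading type.

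Interferon-gamma induces PD-L1 through a pathway that includes JAK1, JAK2 and IRF1, and CMTM6 keeps the PD-L1 protein from degradation. Neutrophils, in which Cmtm6 had its highest median, held 83.1, 74.0, 61.7 and 70.4 CPM of it. Irf1 in neutrophils was 534, 191, 376 and 198 CPM, highest in library 1. Jak2 and Socs1 were highest in mature dendritic cells of library 3 (271 and 207 CPM).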

How the data were processed

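Single cells of 4T1 tumours were profiled by 10x Genomics 3′ v2 sequencing in 4 samples (2 PBS+NIR, 1 TIOs+NIR, 1 unassigned). The authors deposited 1 matrix of whole-number UMI counts per gene and barcode (355765099 UMIs), not scaled per cell, made with Cell Ranger. The version is 2.1.1 with mm10 in the submitters' processing notes, 3.0.2 in the protocol and 6.1.2 in the header of the matrix. The sample records state 15603 cells, the matrix holds 33064 barcodes, and 32133 passed the filters taken from the study's methods (300 genes, 15% mitochondrial UMIs).

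Types were gated on 16 marker lists by the mean z-score (capped at 6) of log counts per 10000. A cell was named with at least 3 markers detected, a score of 0.25 and a lead of 0.25, thresholds set after seeing the data. B cells and basophils never reached 50 cells in a library. Scrublet marked 2.75%, 0.0116%, 0% and 1.73% of cells of libraries 1 to 4 and so did not work in libraries 2 and 3; doublets were kept. A gene was tested between types or libraries when it reached 10 CPM in the higher one, and called at 2-fold or more in every library. The members and lists were chosen with earlier results of these data known. The text names the 8 members in every type, the genes of the pathway lists, the markers, and the 3 genes most correlated with each member among those reaching 50 CPM. Some genes of these lists are not reported here. Alternatives were other filters and gates, Leiden clusters, doublet removal, thinning, other summaries and leaving out each library. Python 3.11.15, numpy 2.4.6, scipy 1.17.1, pandas 2.3.3, scanpy 1.11.5 and igraph 0.11.9 were used. Steps were tested on 6000 simulated cells drawn from the summed profiles of gated cells, of which 97.9% were given their own type. No doublets were simulated and ungated cells were left out, so this checks the steps and not the accuracy of the gate.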

Additional observations from a re-analysis of the deposited data

How the results depend on the processing

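No paired analysis was possible because no source ties a library to a sample and no result comes from a test. Of 213 values under alternatives, 178 stayed within a band set around the main value. For levels and shares the band was the standard deviation between libraries, or an exact interval where a type had 1 library. For counts it was a fixed fold, and for the Cd274 fold an exact interval. The band is thus not counting error and can be wide. Some outcomes were also fixed by the rule. With 2 libraries in a type, the value without either one always falls within the standard deviation. With 1 library, leaving out any other returns the main value. The count of 178 is therefore no measure of how firm the values are. For Pdcd1lg2 it held all 13 alternatives, from 17.7 to 66.8 CPM. The leading type, meaning the one with the highest median CPM over its libraries, was kept in 92 of 101 alternatives for levels. For Cd80, Cd86 and Pvr it was mature dendritic cells, whose value came from library 3 alone. In that library type 2 dendritic cells were higher in Cd86 (178 against 168 CPM). For mature dendritic cells of library 3, a stricter gate gave 88.7 CPM of Cd80, 204 of Cd86 and 158 of Pvr, Leiden clusters gave 91.6, 215 and 167, and a mean over cells gave 91.2, 223 and 161. A minimum of 20 cells, which adds library 2, gave 194 CPM of Cd86 and 109 of Pvr. There is no value for this type without library 3. The mean over cells gave 53.4 CPM of Cd276 in endothelial cells. Pdcd1lg2 led in NK cells in 8 of 13 alternatives and in T cells otherwise, and its NK level ran from 17.7 without library 1 to 66.8 without library 4. The share of cells with a UMI in the leading type fell on thinning from 18.9% to 2.69% for Pdcd1lg2, 42.5% to 10.8% for Cd80, 61.8% to 20.2% for Cd86, 29.0% to 5.96% for Cd276, 59.4% to 16.3% for Pvr, 51.3% to 8.90% for Nectin2 and 62.5% to 21.9% for Lgals9. With 2 UMIs required it was 22.5% for Cd274, 19.8% for Cd80, 44.0% for Cd86, 16.3% for Cd276, 36.2% for Pvr, 33.6% for Nectin2 and 37.4% for Lgals9. The share with both Cd80 and Cd86 went to 2.96% and that with both Cd276 and Nectin2 to 0.306%. These drops follow from the fewer UMIs counted. The Cd274 fold in neutrophils was 5.32 after thinning, and 1.51 to 4.47 when 1 library was left out, the lowest without library 4. Of the 24 most alike pairs, 9 were kept with Spearman's rho and 9 to 14 without 1 library. Choices of the gate with Leiden clusters, doublet removal and the comparisons between types and of library order under them were added after seeing the data.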

Other observations

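The 6417 cells without a type name also carried the ligands. They held 23.4% of all Cd274 UMIs, with 91.4, 246, 48.6 and 29.6 CPM in libraries 1 to 4. Their Cd80 level was 6.62, 26.6, 7.09 and 7.32 CPM, highest in the same library as that of Cd274. Their Pvr level was 35.6, 36.4, 53.4 and 35.5 CPM, highest in library 3, whose interval [49.6 to 57.3] was separate from those of the other libraries. In fibroblasts with neither a Lrrc15 nor a Dpt UMI, Cd274 had 52.8 CPM [41.4 to 66.3] in library 2 at a median depth of 2065 UMIs, against 7.81 and 4.30 CPM in libraries 3 and 4 at 13675.5 and 13447 UMIs.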
